A study of Mus musculus with 8 samples.

Results

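The Cyp4a fatty acid hydroxylases are described here by their 6 genes Cyp4a12a, Cyp4a12b, Cyp4a10, Cyp4a14, Cyp4a31 and Cyp4a32, matched by symbol among the 56691 genes of the deposited table of liver RNA. The family was chosen by measured values of these same libraries, the low p-values of Cyp4a12a and Cyp4a12b between the groups and the level of Cyp4a10 in 1 control library, so differences between the groups are given as a description and support nothing further. All 6 genes passed the filter on low counts that 14533 genes passed. The study measured RNA of livers of wild-type C57BL/6J mice in 8 libraries. The mice were 6 weeks old at the start, ate the HFD-CDAA diet, which is rich in fat, lacks choline and supplies protein as amino acids, for 4 weeks in both groups, and were killed after fasting briefly. Mice of the control group, 4 libraries named plive-Con, had received the plasmid plive-Con by hydrodynamic tail vein injection, which drives plasmid into liver cells, and 4 libraries named plive-Tet1 came from mice injected with plive-Tet1, a plasmid for overexpression of Tet1. The series title places the overexpression in hepatocytes and calls the animals a model of metabolic dysfunction-associated steatohepatitis. No source used here gives the promoter of the plasmids.

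Library totals lay between 15885113 and 19850800 counts. Reads on Tet1 numbered 1, 9, 6 and 5 in the plive-Con libraries and 9, 8, 12 and 5 in the libraries labelled plive-Tet1, so the counts do not separate the groups. One label field names Tet2, Tet3 and Tet4 for plive-Tet1 replicates 2, 3 and 4, and grouping followed the sample titles. The labels do not say that each library is a separate animal, nor the sex of the mice. All 8 libraries held transcripts of the Y-linked gene Ddx3y, between 7.20 and 19.2 CPM (counts scaled to library size, with TMM factors), and Xist, the RNA that coats the inactive X chromosome, lay between 0 and 0.206 CPM. The hepatocyte markers Alb, Apoa1, Ttr, Hnf4a, Cyp2e1 and Serpina1a summed to between 37651 and 44439 FPKM (the count scaled to exonic length and library size) in plive-Con and between 34284 and 44163 FPKM in plive-Tet1, and 0 of the 6 passed the test between groups. Cyp4a genes are also active in kidney, whose 4 tubule markers (Slc34a1, Lrp2, Umod and Slc5a2) summed to at most 0.05 FPKM in any library. 1 library, plive-Con 4, stood apart in several of the genes below, and values that rest on it are marked or given with and without it.

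Enzymes of the CYP4A family are microsomal cytochromes P450 that add a hydroxyl group to the terminal (omega) carbon of medium- and long-chain fatty acids. The products are oxidised further to dicarboxylic acids, which peroxisomes shorten by beta-oxidation, and with arachidonic acid as substrate the product is the eicosanoid 20-HETE. In mouse liver, Cyp4a10 and Cyp4a14 are classical targets of the nuclear receptor PPARα that respond to fasting and to fatty acid load, whereas Cyp4a12a is known as a male-biased, androgen-dependent gene and as the main 20-HETE synthase of the family.

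The 6 genes form 1 cluster on chromosome 4. On GRCm39, the build in the submitters' processing notes, Cyp4a12a (ENSMUSG00000066071) spans 115156243 to 115190012 and Cyp4a12b (ENSMUSG00000078597) 115268821 to 115296231, both on the plus strand. Cyp4a14 (ENSMUSG00000028715) follows from 115343397 to 115353339 as the single member on the minus strand. Cyp4a10 (ENSMUSG00000066072) lies from 115375461 to 115390846, Cyp4a31 (ENSMUSG00000028712) from 115420846 to 115436212 and Cyp4a32 (ENSMUSG00000063929) from 115458166 to 115478799, all on the plus strand. From the first to the last base the cluster measures 322.6 kb. The table lists 5 further Cyp4a entries, pseudogenes among them, and all 5 had 0 counts in all 8 libraries.

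A stretch of coding exon 6 shows how alike the copies are, which bears on how far reads can be told apart. It is the 60-base window, aligned without gaps in all 6 genes, with the most positions at which members differ (35 of 60), read 5′ to 3′ along the coding strand from the GENCODE M21 transcripts on GRCm38. Capitals mark bases that differ from Cyp4a12a, whose stretch lies at chr4:115326638-115326697 (GRCm38, plus strand). The stretch of Cyp4a12b lies at chr4:115432891-115432950, that of Cyp4a10 at chr4:115524735-115524794, that of Cyp4a32 at chr4:115610463-115610522 and that of Cyp4a31 at chr4:115570196-115570255, all on the plus strand, and that of Cyp4a14 at chr4:115492166-115492225 on the minus strand.
Cyp4a12a: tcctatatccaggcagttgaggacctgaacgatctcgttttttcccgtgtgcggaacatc
Cyp4a12b: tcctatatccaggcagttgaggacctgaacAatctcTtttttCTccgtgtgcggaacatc
Cyp4a10: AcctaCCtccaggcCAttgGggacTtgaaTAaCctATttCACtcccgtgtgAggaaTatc
Cyp4a32: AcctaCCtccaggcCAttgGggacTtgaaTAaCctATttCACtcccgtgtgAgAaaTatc
Cyp4a31: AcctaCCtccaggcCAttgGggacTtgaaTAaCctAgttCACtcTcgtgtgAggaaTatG
Cyp4a14: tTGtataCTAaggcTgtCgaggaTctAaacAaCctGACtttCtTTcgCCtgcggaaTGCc

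Cyp4a12b differs from Cyp4a12a at 4 of these 60 bases, Cyp4a10 at 17 and Cyp4a14 at 22, while Cyp4a32 differs from Cyp4a10 at 1 and Cyp4a31 from Cyp4a10 at 3. The same 3 kinds of copy appear over the whole coding sequence. Cyp4a12a and Cyp4a12b were identical at 98.5% of 1524 aligned coding bases. Cyp4a10 was identical to Cyp4a32 at 97.2% and to Cyp4a31 at 96.6%, and the coding sequence of Cyp4a14 was between 75.1% and 76.1% identical to the others. Reads were 150 bases long per end, per the labels' protocols. Of all 150-base windows of the Cyp4a12a transcript, 25.6% also occur letter for letter in Cyp4a12b. For Cyp4a10, Cyp4a31 and Cyp4a32 the shared windows were 4.34%, 4.19% and 7.97%, and for Cyp4a14 0% of windows occurred in another gene. No source used here says how reads that fit several copies were counted, so the split within Cyp4a12a and Cyp4a12b, and to a lesser degree within Cyp4a10, Cyp4a31 and Cyp4a32, is uncertain.

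Per length, Cyp4a14 and Cyp4a10 supplied most of the Cyp4a transcripts in every library. Cyp4a14 averaged 388 ± 435 FPKM over the 8 libraries (SD) and ranked 3rd of 100 P450 genes by mean FPKM, and Cyp4a10 averaged 189 ± 167 FPKM and ranked 9th. In each single library Cyp4a14 ranked between 2nd and 8th and Cyp4a10 between 3rd and 18th, with median ranks of 6.5 and 11.5. The means of Cyp4a14, Cyp4a10 and Cyp4a31, and the ranks by mean, rest in part on plive-Con 4. That library held 1456, 598 and 51.25 FPKM of these genes. Cyp4a12a followed at 24.7 ± 9.45 FPKM, Cyp4a31 at 22.0 ± 12.3, Cyp4a32 at 14.0 ± 2.48 and Cyp4a12b at 9.27 ± 4.27 FPKM.

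The order of the levels was the same in all 8 libraries for the top of the list: Cyp4a14 lay above Cyp4a10, and Cyp4a10 above each of the other 4 genes. Below them the order depended on the group. Cyp4a12a exceeded Cyp4a31 in 0 of 4 plive-Con libraries and in 4 of 4 plive-Tet1 libraries. Cyp4a31 and Cyp4a32, the next pair in order, kept their order in 7 of 8 libraries, and Cyp4a12b lay below Cyp4a32 in 4 of 4 plive-Con and in 2 of 4 plive-Tet1 libraries. Over all 8 libraries, the means of Cyp4a12a and Cyp4a31 differed by less than either SD, although each group by itself had 1 order.

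**Figure D1:**
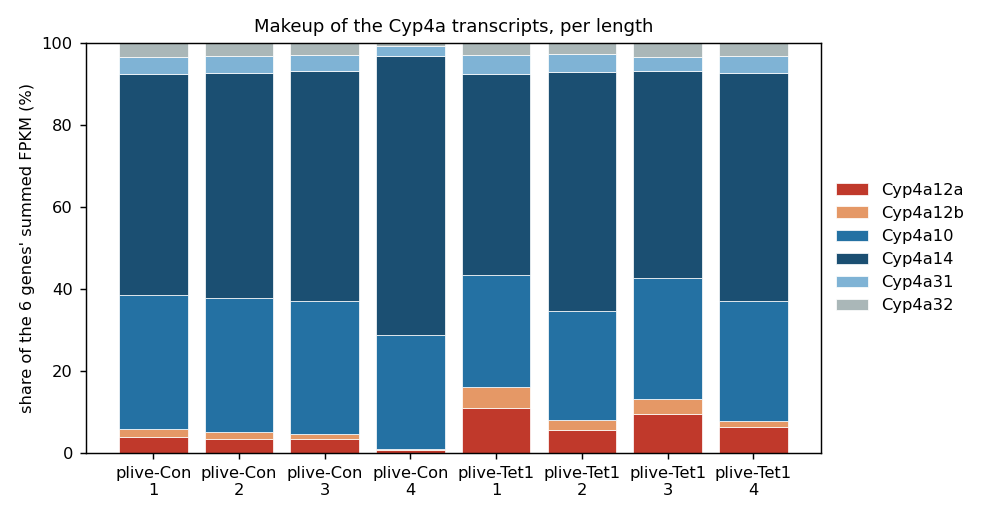
Share of each gene in the summed FPKM of the 6 Cyp4a genes, in percent, for each of the 8 libraries. Cyp4a14 and Cyp4a10 fill most of every bar, and the red and orange parts, Cyp4a12a and Cyp4a12b, together take between 0.991% and 5.84% in plive-Con and between 8.00% and 16.1% in plive-Tet1.

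Cyp4a12a, the male-biased hydroxylase, was measured at 35.8, 35.9, 49.4 and 41.5 CPM in plive-Con 1 to 4 and at 82.7, 66.0, 92.6 and 74.2 CPM in plive-Tet1 1 to 4. Every plive-Tet1 library lay above every plive-Con library. The means were 40.6 ± 6.39 and 78.9 ± 11.4 CPM (SD, n = 4 each), a ratio of 1.94, and the edgeR log2 fold change (plive-Tet1 relative to plive-Con) was 0.96 with a 95% interval from 0.64 to 1.27. With any 1 library left out the fold change stayed between 0.85 and 1.04. In whole liver RNA, fewer cells of a type and less RNA per cell cannot be told apart.

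Cyp4a12b, its near-identical copy, was measured at 16.3, 16.4, 14.9 and 11.9 CPM in plive-Con and at 37.5, 28.1, 34.3 and 16.9 CPM in plive-Tet1. The groups again did not overlap, but plive-Tet1 4 lay only just above the highest plive-Con library. Means were 14.9 ± 2.08 and 29.2 ± 9.08 CPM (SD, n = 4 each), and the log2 fold change was 0.97 (95% interval 0.50 to 1.43).

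The split between these copies did not follow the group. Cyp4a12a took 68.7%, 68.6%, 76.8% and 77.6% of the reads assigned to the pair in plive-Con 1 to 4, and 68.8%, 70.1%, 73.0% and 81.5% in plive-Tet1 1 to 4. The values of the groups overlap, with means of 72.9% ± 4.94 and 73.4% ± 5.70 (SD, n = 4 each). With the reads of both copies summed before the fit, which removes the uncertain split, the log2 fold change was 0.96 ± 0.14 (SE).

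Cyp4a14, the most abundant member, was measured at 515, 602, 833 and 3940 CPM in plive-Con and at 394, 724, 523 and 678 CPM in plive-Tet1. 1 liver library, plive-Con 4, stood at 6.06 times the mean of plive-Con 1 to 3, and the other plive-Con libraries lay inside or near the range of the plive-Tet1 libraries. The group means were 1473 ± 1651 and 580 ± 151 CPM (SD, n = 4 each), so the SD of plive-Con exceeded its mean. The log2 fold change was -1.34 (95% interval -2.51 to -0.18) with all libraries and -0.16 without plive-Con 4.

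Cyp4a10, the second classical PPARα target of the family, had the same pattern, with 255, 292, 392.5 and 1311 CPM in plive-Con and 178, 267, 246 and 290.1 CPM in plive-Tet1. plive-Con 4 stood at 4.19 times the mean of plive-Con 1 to 3, and without it the log2 fold change was -0.35 instead of -1.20 (95% interval -2.12 to -0.27). The mean over plive-Con 1 to 3 was 313 ± 71.1 CPM (SD, n = 3), against 245 ± 48.3 CPM (SD, n = 4) in plive-Tet1, and these ranges overlap.

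Cyp4a31, a close copy of Cyp4a10, was measured at 38.6, 45.7, 56.7 and 134 CPM in plive-Con and at 35.8, 52.5, 32 and 50 CPM in plive-Tet1. Here plive-Con 4 stood at 2.85 times the mean of the other 3 controls, and the log2 fold change was -0.69 (95% interval -1.40 to 0.02), or -0.14 without it. Cyp4a32, the other close copy, had the narrowest range over the 8 libraries, with 20.3, 20.7, 26.3 and 28.0 CPM in plive-Con and 13.8, 19.4, 21.8 and 23.2 CPM in plive-Tet1. plive-Con 4 was again the highest, but at 1.25 times the mean of plive-Con 1 to 3. The log2 fold change of Cyp4a32 was -0.29 (95% interval -0.66 to 0.09) and the groups overlapped.

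**Figure D2:**
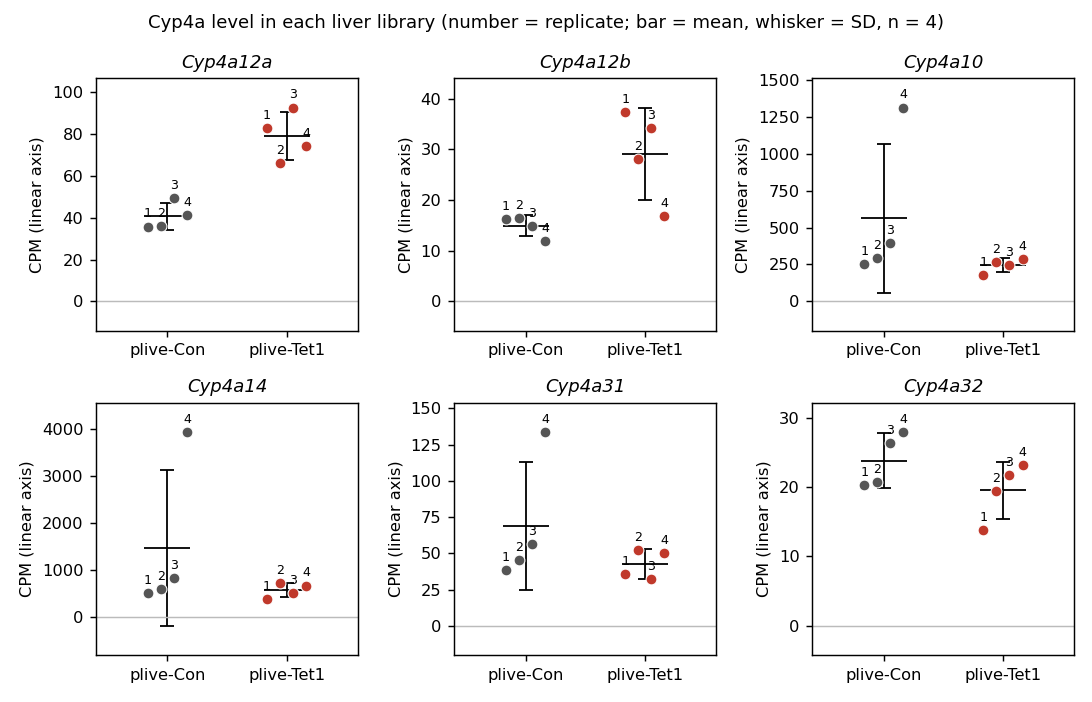
CPM of each Cyp4a gene (linear axis, TMM-scaled) in the 4 plive-Con and 4 plive-Tet1 libraries; points are libraries numbered by replicate, the bar is the mean and the whisker the SD. Cyp4a12a and Cyp4a12b separate by group, whereas in Cyp4a10, Cyp4a14 and Cyp4a31 the library plive-Con 4 (1311, 3940 and 134 CPM) stands far above the other 7.

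Of the 6 genes, 2 had groups that did not overlap, Cyp4a12a and Cyp4a12b, both higher with plive-Tet1. Of all tested genes 2.28% had groups that did not overlap, 1.3% with plive-Tet1 higher and 0.977% with it lower. The log2 fold change was above 0 in 2 of the 6, where 52% of all tested genes were above 0, and below 0 in 4, where 48% were below. The quasi-likelihood test of edgeR, with p-values adjusted by Benjamini-Hochberg over the 14533 genes, called 0 of the 6, with 0% of all genes called. At an unadjusted p under 0.05 it had 4 of the 6 and 591 of all genes, or 4.07%. With every gene of at least 1 count tested, edgeR called 5 of the 6, all but Cyp4a32, and 0.469% of all genes. On the same genes, its other quasi-likelihood setting (legacy = FALSE) called Cyp4a12a, 1 of the 6, and 0.0284% of all genes. DESeq2, tried as an alternative, called Cyp4a12a and Cyp4a12b, 2 of the 6, and returned no adjusted p for Cyp4a14. It called 0.0757% of all genes, 0.0344% with plive-Tet1 higher and 0.0413% with it lower. limma on log2(FPKM + 0.5) and limma voom with library weights each called 0 genes. Because the comparison chose the genes, nothing is read from these counts.

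**Figure D3:**
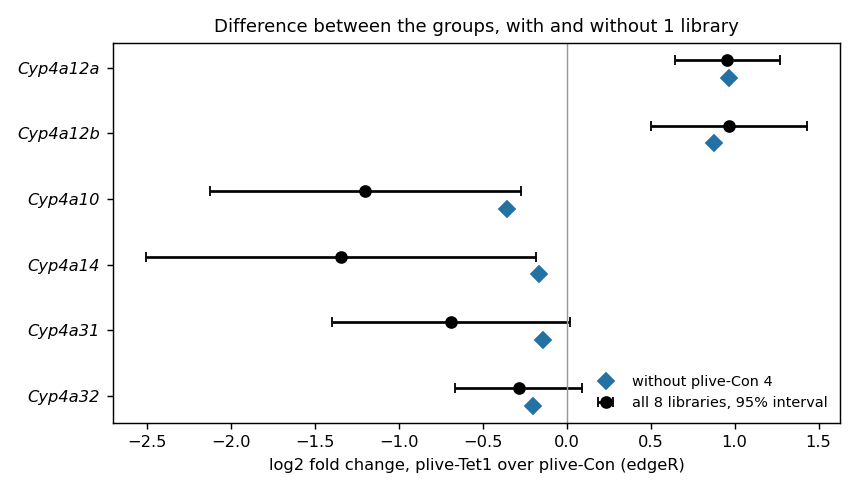
Log2 fold change (edgeR, plive-Tet1 relative to plive-Con) of each Cyp4a gene with all 8 libraries (black, with its 95% interval) and without plive-Con 4 (blue diamonds). Cyp4a12a and Cyp4a12b are 0.96 and 0.97 with all libraries and 0.97 and 0.88 without plive-Con 4, while Cyp4a10 moves from -1.20 to -0.35 and Cyp4a14 from -1.34 to -0.16.

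The sum over the family rested on plive-Con 4. The 6 genes summed to 365, 442, 537 and 2144 FPKM in plive-Con and to 314, 499, 400.0 and 467 FPKM in plive-Tet1. Without plive-Con 4, the plive-Con mean was 448 ± 86.1 FPKM (SD, n = 3), and the plive-Tet1 mean was 420.1 ± 81.7 FPKM (SD, n = 4), a difference smaller than either SD. With the reads of all 6 genes summed before the fit, the log2 fold change was -1.13 ± 0.48 (SE) over all 8 libraries. Within the sum, Cyp4a12a and Cyp4a12b together held 4.15% ± 2.16 in plive-Con and 11.4% ± 3.98 in plive-Tet1 (SD, n = 4 each). Without plive-Con 4, the plive-Con share was 5.21% ± 0.602 (SD, n = 3). The ratio of Cyp4a14 to Cyp4a10 per length was 1.64, 1.67 and 1.72 in plive-Con 1 to 3, 2.44 in plive-Con 4, and between 1.73 and 2.2 in plive-Tet1.

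How the genes vary together from library to library was examined over all 15 pairs on log2 CPM. The level of Cyp4a10 in plive-Con 4 helped choose the family and is the extreme point of several pairs, so values over all 8 libraries are given as a description without a test. Over all 8 libraries Cyp4a10 and Cyp4a14 had the highest Pearson r, 0.989, with a Spearman rho of 0.881. Over the 7 libraries without plive-Con 4, r was 0.915 and rho 0.821, and in exact two-sided permutation tests adjusted over the 15 pairs the p-values were 0.0454 for r and 0.128 for rho. With plive-Tet1 1 left out as well, r was 0.815 and rho 0.714 (exact unadjusted p 0.0306 and 0.136).

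Cyp4a14 and Cyp4a31 had an r of 0.974 and the highest rho, 0.929. Without plive-Con 4, r was 0.879 and rho 0.893 (exact permutation test, adjusted p 0.0454 and 0.128). For Cyp4a10 and Cyp4a31 r was 0.955 and rho 0.881, and without plive-Con 4 they were 0.750 and 0.821 (exact permutation test, adjusted p 0.0952 and 0.128). The 150-base windows that Cyp4a10 and Cyp4a31 share could put reads of 1 gene into the other, whereas Cyp4a14 shares none with either. Without plive-Con 4, 4 of the 15 pairs passed by Pearson and 0 by Spearman. The 4 include Cyp4a12b and Cyp4a10, uncentred, a pair that carries the difference between the groups. That pair is not read as variation from library to library. All 4 had the same adjusted p, and the adjustment took in that pair. Cyp4a10 and Cyp4a32, which share 150-base windows, are also among the 4. Without plive-Con 4 their r was 0.925 and their rho 0.679 (exact permutation test, adjusted p 0.0454 and 0.274).

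The groups of Cyp4a12a and of Cyp4a12b do not overlap, so a correlation over all 8 libraries would repeat the difference between the groups and none is given for pairs that hold either gene. With values centred within each group and permuted within groups, r was 0.200 for Cyp4a12a and Cyp4a12b (exact permutation test, adjusted p 0.846). For Cyp4a12b and Cyp4a10 the centred r was -0.563, given as a description without a test. It includes plive-Con 4, whose Cyp4a10 level helped choose the family. There Cyp4a10 was highest and Cyp4a12b lowest of the 8 libraries.

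**Figure D4:**
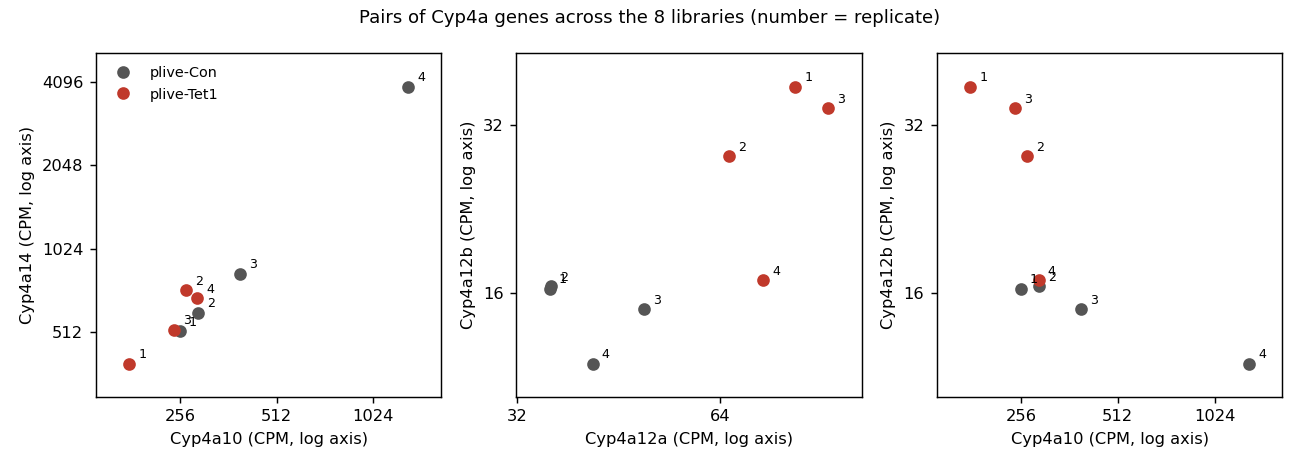
CPM of 3 pairs of Cyp4a genes on log axes; points are libraries numbered by replicate, grey for plive-Con and red for plive-Tet1. Libraries with more Cyp4a10 have more Cyp4a14 and plive-Con 4 lies at the upper end; Cyp4a12a and Cyp4a12b separate by group; Cyp4a12b is highest in plive-Tet1 1 and 3.

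Among all other tested genes, those with the most similar profile were found by the mean absolute difference between centred log2 CPM values over the 8 libraries, given as a description. For Cyp4a14 these were Acot1, an acyl-CoA thioesterase (mean difference 0.13), the carboxylesterase gene Ces1d (0.18), Ppp1r1b, which encodes an inhibitor of a protein phosphatase (0.24), and Acot4, another acyl-CoA thioesterase (0.25). The median difference over all genes was 0.68. Acot1 was measured at 9.62, 15.7, 20.1 and 110.2 CPM in plive-Con and at 9.21, 19.0, 14.8 and 16.6 CPM in plive-Tet1, with plive-Con 4 alone at the top, and its copies in the Acot family leave the split of its reads uncertain. For Cyp4a10 the nearest were Acot4 (0.16), Coq10b (0.19), Ces1d (0.20) and ENSMUSG00000121034 (0.22), against a median of 0.60. ENSMUSG00000121034 has no symbol in the table and was low, with a mean of 0.852 CPM. Cyp4a14 itself stood at 0.16 from Cyp4a10.

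Cyp4a12a had a different set of neighbours. Ihh, which encodes the Indian hedgehog ligand, differed from it by 0.11 on average, Rasgrf2, a guanine nucleotide exchange factor, by 0.14, Gm16001 by 0.19 and Loxl4, a lysyl oxidase-like enzyme, by 0.21, where the median over all genes was 0.50. Rasgrf2, Gm16001 and Loxl4 were low, with means of 0.937, 0.560 and 1.83 CPM over the 8 libraries, so their profiles rest on few reads. Cyp4a12b was 0.31 away and ranked 94th in likeness to Cyp4a12a. Ihh was measured at 3.53, 3.43, 5.41 and 3.76 CPM in plive-Con and at 6.31, 6.74, 9.91 and 7.16 CPM in plive-Tet1, highest in plive-Tet1 3 as Cyp4a12a was.

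Other genes of the pathway came from 10 lists, chosen with earlier results of these data known. They held 145 distinct tested genes besides the Cyp4a members, of which edgeR called 0, with 18 at an unadjusted p under 0.05, and DESeq2 called 1. Of all tested genes, 4.07% were under that unadjusted p and DESeq2 called 0.0757%. Because of how the lists were chosen, nothing is read from these counts. Of 16 other Cyp4 genes 9 were tested and 0 passed, 5 with a log2 fold change above 0 and 4 below, with a median of 0.03 where the median of all tested genes was 0.01. Per length, Cyp4v3 (106 FPKM), a hydroxylase whose human counterpart is linked to a retinal dystrophy, Cyp4f14 (52.7 FPKM), a leukotriene B4 hydroxylase, and Cyp4f15 (34.9 FPKM) led this list. The mean of Cyp4f14 was 118 ± 47.1 CPM in plive-Con and 138 ± 22.7 CPM in plive-Tet1 (n = 4 each, SD), and plive-Con 4 was its lowest library at 67.0 CPM.

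Por, the reductase that passes electrons to all microsomal P450s, was measured at 209, 197, 222 and 637 CPM in plive-Con and at 108, 150, 269 and 170 CPM in plive-Tet1. It did not pass the test (log2 fold change -0.86 ± 0.37 SE, or -0.27 without plive-Con 4), and plive-Con 4 stood at 3.04 times the mean of the other 3 controls. Cyb5a, cytochrome b5, measured 983 ± 87.6 and 860.2 ± 82.3 CPM (SD, n = 4 each) and also did not pass. Of the 5 electron donors, 0 passed, 2 above and 3 below 0.

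The enzymes that take the hydroxylated product further did not pass either, 0 of 24 tested, with 21 below 0 and a median log2 fold change of -0.27, which was -0.09 without plive-Con 4. Adh1, an alcohol dehydrogenase, had means of 2076 ± 271 CPM in plive-Con and 1675 ± 137 CPM in plive-Tet1 (n = 4 each, SD). It was the single gene of the 24 whose groups did not overlap. Of all tested genes 2.28% had groups that did not overlap, 0.977% with plive-Tet1 lower, and nothing is read from this count. Acaa1b, a peroxisomal thiolase, measured 1029 ± 460 and 815 ± 146 CPM (SD, n = 4 each), but 813 ± 196 CPM in plive-Con 1 to 3 (SD, n = 3), since plive-Con 4 stood at 1675 CPM. Scp2, whose long form is a peroxisomal thiolase, measured 1955 ± 262 and 2039 ± 259 CPM (SD, n = 4 each).

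The receptor gene itself had another pattern than Cyp4a10 and Cyp4a14. Ppara was measured at 59.7, 40.7, 64.7 and 57.9 CPM in plive-Con and at 34.5, 49.8, 76.0 and 82.6 CPM in plive-Tet1, so plive-Con 4 lay inside the range of the other controls. Its partner Rxra measured 452 ± 93.5 and 443 ± 69.4 CPM (SD, n = 4 each). Of 13 genes in the list of PPARα and its partners 0 passed, 6 above and 7 below 0. As a description, plive-Con 4 was the highest library in 6 of the 13, or 46.2%, against 18.2% of all tested genes. Of 40 PPARα target genes other than Cyp4a 0 passed, 5 above and 35 below 0, with a median log2 fold change of -0.22. Without plive-Con 4, 20 of the 40 were above 0 and the median was -0.01.

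plive-Con 4 had the highest value of the 8 libraries in 32 of these 40 targets, or 80%, where it was the highest in 18.2% of all tested genes. Acot3, an acyl-CoA thioesterase gene with near-identical copies, stood at 141 CPM there and at 9.02 CPM as the mean of the other 3 controls, against a mean of 4.49 ± 2.25 CPM in plive-Tet1 (SD, n = 4). Acot3 is also counted among the female-biased genes below. The thiolase gene Acaa2 stood there at 1.54 times the mean of the other 3 controls, and Fabp1, the liver fatty acid binding protein, at 1.15 times. The same library was the highest in 17 of 24 genes of the downstream list and in 0 of 9 other Cyp4 genes. The part of a PPARα response in the Cyp4a values of this library was not tested.

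Sex-biased genes set plive-Con 4 apart as well. Its level of Ddx3y, 17.0 CPM, lay within the range of the other controls. Of 20 tested male-biased genes besides Cyp4a12a, 19 had their lowest value there, or 95%, against 19.8% of all tested genes. Serpina1e measured 163 CPM there and 1099 CPM as the mean of plive-Con 1 to 3, Mup20 1174 against 3323 CPM and Mup3 427 against 1565 CPM. Reads of the Mup and Serpina1 genes are shared among near-identical copies, so single values are uncertain. Of 14 tested female-biased genes 11 had their highest value in plive-Con 4, or 78.6%, and 3 their lowest.

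Cyp4a12a did not move with those male-biased genes. Its 41.5 CPM in plive-Con 4 lay between the values of the other controls (35.8 to 49.4 CPM), while Cyp4a12b, at 11.9 CPM, had its lowest value there. Between the groups, 0 of 20 male-biased genes passed, 9 above and 11 below 0, with a median log2 fold change of -0.01 that was -0.27 without plive-Con 4 and up to 0.37 with another library left out. Of the 14 female-biased genes 0 passed by edgeR, 2 above and 12 below 0, with a median of -0.47, or -0.24 without plive-Con 4. Cyp2a4 and Cyp2b9, the highest per length besides Rarres1, stood in plive-Con 4 at 11.9 and 3.62 times the mean of the other controls, while Rarres1 stood at 0.519 times.

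Regulators of sex-biased expression in liver did not pass, 0 of 17 tested. Stat5b, which carries the growth hormone signal, measured 59.0 ± 6.03 and 63.6 ± 8.46 CPM, and Bcl6, a repressor of female-biased genes, 16.2 ± 7.31 and 14.9 ± 6.11 CPM, with 8.96 CPM in plive-Con 4 (SD, n = 4 each). The lowest Bcl6 value was 6.84 CPM, in plive-Tet1 2. Ghr, the growth hormone receptor, measured 193 ± 64.1 and 191 ± 45.5 CPM, Igf1 325 ± 37.2 and 298 ± 56.5 CPM and Hnf4a 492 ± 113 and 519 ± 77.1 CPM (SD, n = 4 each).

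**Figure D5:**
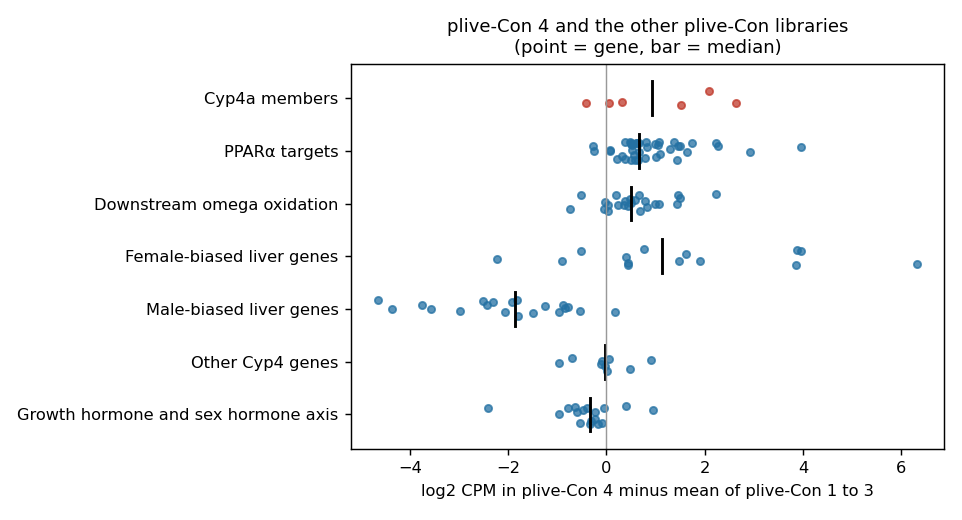
Difference in log2 CPM between plive-Con 4 and the mean of plive-Con 1 to 3 for each tested gene (point) of the Cyp4a family and of 6 gene lists, with the median as a bar. PPARα targets (median 0.67) and female-biased genes (1.12) lie mostly to the right and male-biased genes (-1.86) to the left, while Cyp4a12a lies near 0 (0.06) and Cyp4a14 at 2.63.

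Arachidonic acid is also a substrate of epoxygenases of the Cyp2c and Cyp2j families. Of 14 tested epoxygenase and epoxide hydrolase genes 0 passed, 5 above and 9 below 0, with a median log2 fold change of -0.16. Ephx1, the microsomal epoxide hydrolase, measured 559 ± 83.6 and 572 ± 122 CPM, Ephx2, the soluble one, 706 ± 162 and 606 ± 64.9 CPM, and Cyp2c23 293 ± 54.9 and 312 ± 42.6 CPM (SD, n = 4 each).

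Genes beside the cluster were compared with its members. Within 250 kb of the cluster the table lists 24 genes other than the 6 members, 12 of them without a count in any library. Of 7 tested, 0 passed, and their log2 fold changes ran from -0.63 to 0.14, with a median of -0.17. Mknk1, a kinase gene, measured 24.8 ± 3.82 and 25.2 ± 4.47 CPM, Cyp4b1, the P450 gene next to Cyp4a32, 10.8 ± 2.97 and 9.63 ± 2.87 CPM, and Mob3c 13.1 ± 2.18 and 11.4 ± 0.990 CPM (SD, n = 4 each). In plive-Con 4 Mknk1 stood at 20.5 CPM, below the other controls, Cyp4b1 at 10.1 CPM, within their range, and Mob3c at 16.2 CPM, above them.

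Markers of liver zones and of other cells give the makeup of the libraries beside these values. The 8 pericentral hepatocyte markers summed to between 1279 and 1793 FPKM in plive-Con and between 1402 and 1664 FPKM in plive-Tet1, with plive-Con 4 the lowest of all 8. The 8 periportal markers summed to between 1421 and 2178 FPKM and between 1493 and 2131 FPKM, with plive-Con 4 the highest. Over the 10 marker lists edgeR called 0 genes between the groups. Glul, the pericentral glutamine synthetase, measured 1708 CPM in plive-Con 4 and 1603 CPM as the mean of plive-Con 1 to 3. The 5 red cell markers summed to between 277 and 505 FPKM in plive-Con and between 204 and 332 FPKM in plive-Tet1. Their median log2 fold change was -0.84, and DESeq2 called 2 of them, where it called 0.0757% of all tested genes. The 6 lymphocyte markers summed to between 4.81 and 17.5 FPKM and between 5.78 and 7.79 FPKM, with a median of -0.81. The part of zones, blood or lymphocytes in the Cyp4a values was not tested.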

How the data were processed

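Total liver RNA was sequenced as paired reads, per the labels' protocols. The submitters' processing notes list cutadapt 1.9.1, HISAT2 2.2.1, HTSeq 0.6.1 and GRCm39. Annotation release, strand setting and treatment of multiply mapped reads are named in no source used here. The deposited table holds raw read counts and FPKM per gene, per the file headers. The deposited FPKM equals the deposited count over exonic length and library total, suitably scaled, to within 0.005. The deposited exonic gene sizes are in bases.

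Counts were tested with edgeR's quasi-likelihood test (filterByExpr, TMM, group only, two-sided, Benjamini-Hochberg, threshold 0.05). The software was DESeq2 1.42.0, edgeR 4.0.16 and limma 3.58.1 under R 4.3.3, and the test was checked on simulated data. Log2 CPM used a prior count of 2. Levels of different genes were compared on FPKM. Library pairs within a group differed by more than counting error (chi-square statistic over its degrees of freedom from 12.9 to 77.6). P-values measure the spread between libraries, which may be technical. Intervals come from the fits over libraries. Groups came from sample titles.

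Members and lists were chosen with earlier results of these data known. Named genes were the members, the 4 nearest profiles of 3 members, the 3 list genes highest in FPKM and 9 set genes; those not named in the text are in the counts of their lists. Alternatives covered scaling, filters, tools, pseudocounts of 0.1, 0.5 and 1, summed copies, each library left out and the replicate number as a block.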

Additional observations from a re-analysis of the deposited data

Results flagged for a closer look

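In the 4 plive-Con libraries, plive-Con 4 lay far from the other 3 in the level of Cyp4a10 (1311 CPM), of Cyp4a14 (3940 CPM) and of the summed FPKM of the 6 Cyp4a genes (2144 FPKM). In each case the gap to the next library exceeded, as a share of the range of the group, Dixon's critical value for 4 samples at the 95% level. The sum is made mostly of those 2 genes, so the 3 results are not independent. The level of Cyp4a10 in this library also helped choose the family, so these results describe the value that chose it and are no independent test. They came from 14 groups of values checked, where about 5% are marked by chance. For Cyp4a31 the gap was 0.810 of the range, just inside the limit, with plive-Con 4 again at the end.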

How the results depend on the processing

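Leaving out 1 library at a time moved the log2 fold change of Cyp4a10 between -1.44 and -0.35 and that of Cyp4a14 between -1.63 and -0.16, the value nearest to 0 coming without plive-Con 4 in both. limma voom with library weights gave Cyp4a14 -0.29. All 6 members kept their sign under every alternative run. edgeR called 0 genes, and 0 of the genes in the 20 lists, except with every gene of at least 1 count tested, where it called 132 genes, 21 list genes and 5 of the 6 members. There the prior degrees of freedom, which set how strongly genes share their spread, were 799 instead of 6.87. With edgeR's other quasi-likelihood method (legacy = FALSE, added after seeing the data) and the same genes, 8 genes, 3 list genes and Cyp4a12a were called. DESeq2 called 11 genes and 3 list genes. The cause of these differences was not tested. Shares of counts in place of FPKM gave Cyp4a10 27.6% in plive-Con and 24.6% in plive-Tet1, Cyp4a14 57.7% and Cyp4a32 1.97% in plive-Tet1, since counts grow with gene length.

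Pairs of members passing by Pearson numbered 5, from 3 (without plive-Con 3 or plive-Tet1 2) to 7 (without plive-Con 1) with 1 library left out, and 8 with values centred within groups and permuted within them. All these counts include plive-Con 4, whose Cyp4a10 level helped choose the family. Some of the uncentred counts hold pairs with Cyp4a12b, which carry the difference between the groups. They describe how the count moved and support nothing further. With the replicate block edgeR called 0 genes, and the log2 fold change of Cyp4a12a was 0.96. The SE of each member was smaller with the block. For Cyp4a10 the log2 fold change was -0.86 ± 0.26 (SE) with it and -1.20 ± 0.43 without. Correlations of deviations between same-numbered libraries were 0.01, -0.02, 0.07 and -0.04, and those between differently numbered ones ran from -0.19 to 0.315. These values show no pairing by number but cannot exclude one, and the labels state none. The counts of the members in single libraries ran from 200 upwards. What depth or the number of libraries did to the calls was not tested.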
